A study of Homo sapiens with 40 samples.

Results

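LIN28A, LIN28B, L1TD1 and HMGA2 were followed in human embryonic stem cells during a week of short hairpin RNA (shRNA) expression against OCT4, NANOG or SOX2. The 4 genes were chosen by symbol, out of 20028 genes named on the array, and they are read by 5 of its 47323 probes: 1 each for LIN28A (ILMN_1748903), LIN28B (ILMN_1748697) and L1TD1 (ILMN_1769839), and a pair for HMGA2 (ILMN_2344662 and ILMN_1666236). Both cell lines used, H1 and H9, are long-established lines of such cells. They were grown on Matrigel in mTeSR medium and infected with lentivirus together with polybrene, and RNA of whole cultures was hybridised to 1-colour Illumina arrays. The groups were H1 cells with OCT4 shRNA, with NANOG shRNA or with SOX2 shRNA, H9 cells with OCT4 shRNA, and H1 cells with the control virus (named H1P in the labels), each with 1 array a day from day 0 to day 7. The H9 line had no control virus arm. Each group was 1 time course, so the arrays of days 4 to 7 stood in for replicates (n = 4, and n = 3 with NANOG shRNA), and every p-value measures the scatter of days about a mean, since no arm has a second culture.

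Of 40 arrays, 39 were used (31 of H1 and 8 of H9), because the NANOG shRNA array of day 7 was on another scale. The H9 columns had to be moved by 2 rows after a break in the probe order, and all 5 probes lie after that break, so every H9 value below rests on the move. Levels are normalised log2 intensities, on which the background lay at 6.57. Each level is read within its own probe, since levels of different probes are not comparable. The shRNA targets were checked first. POU5F1, which encodes OCT4, averaged 6.79 ± 0.29 with OCT4 shRNA on days 4 to 7, against 12.70 ± 0.13 with control virus (SD, n = 4 each), and was above background on 3 of the 4 OCT4 shRNA arrays. NANOG averaged 6.66 ± 0.22 with NANOG shRNA (n = 3, of which 2 above background), against 8.77 ± 0.25 with control virus (n = 4). SOX2 averaged 10.16 ± 0.18 with SOX2 shRNA, against 12.16 ± 0.25 with control virus (n = 4 each). On days 0 and 1 the POU5F1 differences from control virus were -0.14 and -1.76 with OCT4 shRNA. Those of NANOG with NANOG shRNA were -1.11 and -1.84, and those of SOX2 with SOX2 shRNA were -1.79 and -2.15. Days 0 and 1 together are therefore no baseline from before the knockdown in these arms, here and below. The targets of other arms moved too: in the OCT4 shRNA arm NANOG fell by 2.22 and SOX2 fell by 3.55 on the log2 scale, relative to control virus, NANOG being above background on only 1 of the 4 arrays. In the NANOG shRNA arm POU5F1 fell by 1.18 (adjusted p = 0.0036). In H9 cells with OCT4 shRNA NANOG fell by 2.23 over the week and SOX2 rose by 1.29 (adjusted p = 0.0028).

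LIN28A and LIN28B are paralogous RNA-binding proteins that carry a cold shock domain and zinc knuckles. They bind the precursors of let-7 microRNAs, the zinc knuckles at a GGAG in the terminal loop, and LIN28A recruits the uridylyl transferases TUT4 and TUT7, which mark the precursor for decay by DIS3L2. Mature let-7 is therefore scarce in pluripotent cells, and messages with let-7 sites are relieved of it. HMGA2, a chromatin-bound architectural protein of the embryo, has many let-7 sites and is among the best known of these targets, and let-7 targets LIN28A and LIN28B in turn. L1TD1 derives from the first open reading frame of a LINE-1 element, is abundant in human pluripotent cells and associates with LIN28 in ribonucleoprotein particles.

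The let-7 sequences are shown because they hold both elements of this circuit, the seed that pairs with targets and the loop letters bound by LIN28. All 8 mature 5p names of the let-7 genes in the RefSeq table (GRCh38.p14) have 22 bases and share the seed GAGGUAG, in capitals here at bases 2 to 8, and the 3 below differ outside it.
hsa-let-7a-5p: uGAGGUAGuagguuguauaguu
hsa-let-7d-5p: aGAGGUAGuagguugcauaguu
hsa-let-7i-5p: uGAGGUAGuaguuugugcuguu

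Of 10 let-7 hairpins with both arms annotated, 8 (80%) hold GGAG between the arms, against 60 of 739 (8.12%) over all such hairpins of the table. MIRLET7A3 and MIRLET7B lack it. The hairpins of MIRLET7D, at chr9:94178834-94178920 on the plus strand, and of MIRLET7I, at chr12:62603686-62603769 on the plus strand, are printed because they are the let-7 genes whose array probes passed the filter on dim probes, with the GGAG in capitals.
MIRLET7D: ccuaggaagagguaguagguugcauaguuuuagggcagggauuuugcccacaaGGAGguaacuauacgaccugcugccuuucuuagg
MIRLET7I: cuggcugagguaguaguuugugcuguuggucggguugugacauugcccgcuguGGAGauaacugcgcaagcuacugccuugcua

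The 250 bases before the start of L1TD1 and before the first of 2 LIN28B starts among the promoters used are shown. The annotated LIN28B gene begins further upstream, at chr6:104937026, and the bases before that position were not examined. The promoters used held no entry for LIN28A or HMGA2, which could not be examined. L1TD1 fell most with OCT4 shRNA and LIN28B was not called there. L1TD1 (chr1:62194599-62194848, plus strand) holds no match on either strand to the octamer ATGCAAAT or to the SOX cores ACAATG and ACAAAG. LIN28B (chr6:104940715-104940964, plus strand) holds 1 ACAATG, in capitals, 140 bases before that start, and the window of its second start (chr6:104956857-104957106, plus strand, not printed) holds no ACAATG and 1 ACAAAG. Over 35116 promoters of the same length, ATGCAAAT occurs in 1.63%, ACAATG in 9.29% and ACAAAG in 13.7%. A match is a match of letters and shows no binding.
L1TD1: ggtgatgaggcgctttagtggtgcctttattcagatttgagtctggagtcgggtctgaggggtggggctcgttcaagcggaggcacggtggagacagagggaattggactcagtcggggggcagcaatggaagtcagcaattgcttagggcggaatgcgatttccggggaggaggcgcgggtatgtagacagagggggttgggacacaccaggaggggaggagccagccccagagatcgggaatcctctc
LIN28B: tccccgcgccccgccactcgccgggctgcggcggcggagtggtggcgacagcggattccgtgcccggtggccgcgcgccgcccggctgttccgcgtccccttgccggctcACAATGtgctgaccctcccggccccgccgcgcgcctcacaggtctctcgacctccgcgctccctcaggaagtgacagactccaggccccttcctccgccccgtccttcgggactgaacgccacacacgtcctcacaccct

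With OCT4 shRNA, L1TD1 and LIN28A fell by days 4 to 7 and HMGA2 rose, while LIN28B did not pass the test. L1TD1 was 3.52-fold lower and LIN28A 1.95-fold lower than with control virus, and HMGA2 was 1.72-fold higher by its brighter probe. NANOG shRNA was followed by a 1.83-fold lower L1TD1, and SOX2 shRNA by a 1.36-fold higher HMGA2, as single calls among the 4 genes. HMGA2 with SOX2 shRNA stood 1.26-fold above control virus on days 0 and 1 already, when SOX2 was already lower, and this was not called. The counts of genes called (limma, Benjamini-Hochberg adjusted p under 0.05) were 3 of 4 with OCT4 shRNA, where 47.8% of all 13544 genes tested were called, 1 of 4 with NANOG shRNA (15.3% of all genes) and 1 of 4 with SOX2 shRNA (8.21%). With so large a share of all genes called with OCT4 shRNA, the count there is no result about these 4 genes. All 4 genes passed the filter on dim probes.

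**Figure D1:**
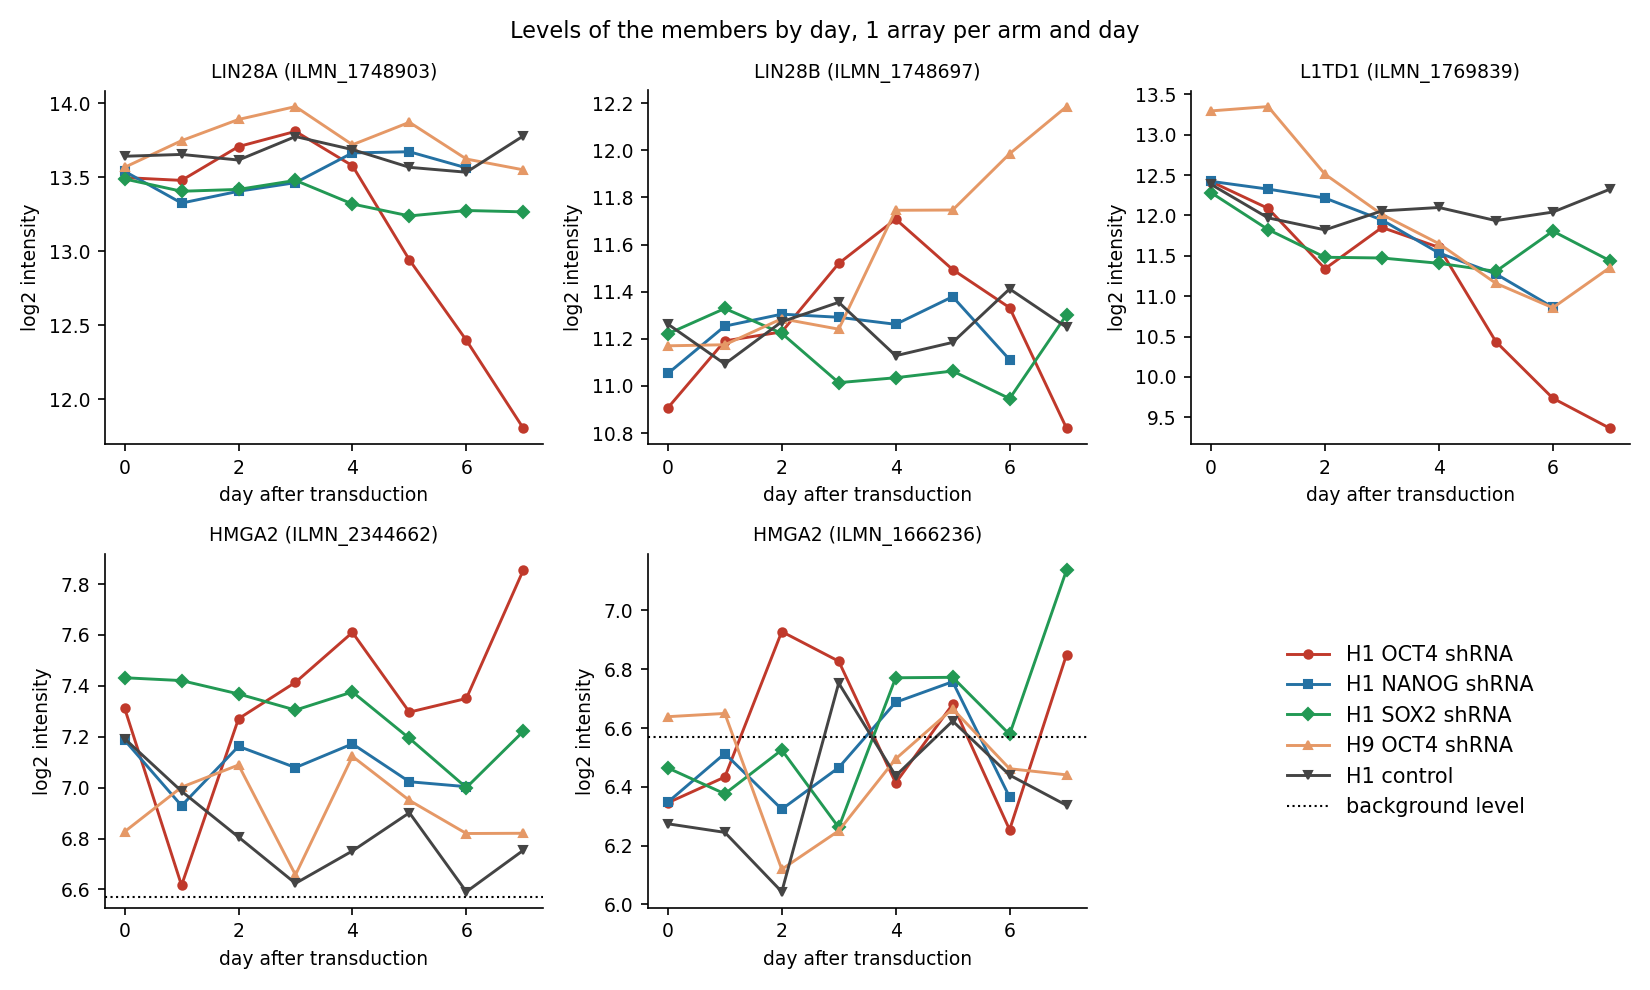
Level of each probe (log2 intensity) against day, 1 array per point, for the 4 shRNA arms and the control virus arm. With OCT4 shRNA L1TD1 ended at 9.37 on day 7, against 12.32 with control virus, and LIN28A at 11.80, against 13.78. The dotted line in the HMGA2 panels is the background level of 6.57.

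LIN28A was high on every array and fell late with OCT4 shRNA. Its levels with OCT4 shRNA were 13.58, 12.94, 12.40 and 11.80 on days 4 to 7, against 13.69, 13.57, 13.53 and 13.78 with control virus. The OCT4 shRNA series was lower on each later day, and its day 4 level still lay among those of the control virus. The mean was 12.68 ± 0.76 with OCT4 shRNA and 13.64 ± 0.11 with control virus (SD, n = 4 each), a log2 difference of -0.96 ± 0.18 (SE, 95% confidence interval -1.33 to -0.59, adjusted p = 4.9e-05). Without the day 7 arrays the difference was -0.62, so a single day carries much of its size, and it was called under each of 16 settings that left out an array or a day. After subtraction of the difference on days 0 and 1 it was -0.80 and not called (adjusted p = 0.0627). By size it was the 721st lowest of the 13544 genes.

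LIN28A did not pass the test with either of the other shRNAs. With NANOG shRNA its levels were 13.66, 13.67 and 13.56 on days 4 to 6, which lay within those of control virus, and the difference was -0.01 ± 0.20 (adjusted p = 0.987). With SOX2 shRNA the levels were 13.32, 13.24, 13.27 and 13.27 on days 4 to 7, each below all 4 of control virus. That difference was -0.37 ± 0.18 (95% confidence interval -0.74 to 0.004, adjusted p = 0.247). It was called where only the SOX2 shRNA and control virus arms entered the fit (adjusted p = 0.00537) and with array weights (adjusted p = 0.0322).

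LIN28B, the paralog of LIN28A, was not called in any late difference from control virus. With OCT4 shRNA its levels were 11.71, 11.49, 11.33 and 10.82 on days 4 to 7, against 11.13, 11.18, 11.41 and 11.25 with control virus. The days 4 and 5 lay above all control virus arrays and day 7 below them all, so that the mean of 11.34 ± 0.38 stood beside 11.24 ± 0.12 (SD, n = 4 each), a difference of 0.10 ± 0.13 (95% confidence interval -0.17 to 0.36, adjusted p = 0.586). With NANOG shRNA the levels on days 4 to 6 were 11.26, 11.38 and 11.11, and the difference was 0.01 ± 0.14 (95% confidence interval -0.28 to 0.29). With SOX2 shRNA they were 11.04, 11.06, 10.95 and 11.30, and the difference was -0.16 ± 0.13 (95% confidence interval -0.42 to 0.11). All 3 intervals leave room for a modest change in either direction.

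L1TD1, the LINE-1 derived partner of LIN28, was lower than with control virus on every late array of all 3 H1 shRNA arms. With OCT4 shRNA its levels were 11.60, 10.44, 9.74 and 9.37 on days 4 to 7, against 12.10, 11.94, 12.04 and 12.32 with control virus. The groups did not overlap, and the OCT4 shRNA arm was lower on each later day. The mean of 10.29 ± 0.98 stood against 12.10 ± 0.16 (SD, n = 4 each), a difference of -1.81 ± 0.26 (95% confidence interval -2.35 to -1.27, adjusted p = 9.4e-07), the 155th lowest of all genes tested. It was called under all 16 settings that left out an array or a day, with values from -2.25 to -1.43.

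With NANOG shRNA L1TD1 stood at 11.54, 11.28 and 10.86 on days 4 to 6. The mean was 11.22 ± 0.34 (n = 3), against 12.10 ± 0.16 with control virus (n = 4), a difference of -0.88 ± 0.29 (95% confidence interval -1.46 to -0.29, adjusted p = 0.034). This call was not robust: it held in 5 of the 15 settings that left out an array or a day, with differences from -1.03 to -0.69. It was lost without NANOG shRNA day 5 or 6, without control virus day 4 or 7, and without all arrays of day 0, 1, 2, 3, 5 or 6, and also after subtraction of the difference on days 0 and 1 (-1.07, adjusted p = 0.348). With SOX2 shRNA the levels were 11.41, 11.31, 11.81 and 11.44 on days 4 to 7, below all 4 of control virus, and the difference of -0.61 ± 0.26 was not called (95% confidence interval -1.15 to -0.07, adjusted p = 0.17). It was called where only those 2 arms entered the fit (adjusted p = 0.00195) and with array weights (-0.57, adjusted p = 0.0264). The 3 comparisons share the control virus arrays.

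HMGA2, the let-7 target, rose with OCT4 shRNA by 1 of its probes, which stood for the gene because its mean was the higher. This probe, ILMN_2344662, was above background on all 39 arrays, and read 7.61, 7.30, 7.35 and 7.85 with OCT4 shRNA on days 4 to 7, against 6.75, 6.90, 6.59 and 6.75 with control virus. All OCT4 shRNA arrays lay above all control virus arrays. The mean was 7.53 ± 0.26 with OCT4 shRNA and 6.75 ± 0.13 with control virus (SD, n = 4 each), a difference of 0.78 ± 0.13 (95% confidence interval 0.52 to 1.04, adjusted p = 7.1e-06). The control virus arrays lay close to background, with a mean late intensity of 158 against a background intensity of 145. Over 30 alternatives the difference was called each time, but its size ranged from 0.43 to 1.03. With SOX2 shRNA this probe read 7.38, 7.19, 7.00 and 7.22, again above every control virus array, a difference of 0.45 ± 0.13 (95% confidence interval 0.19 to 0.71, adjusted p = 0.024). That call held in 6 of 16 settings that left out an array or a day, and was lost without SOX2 shRNA day 4, 5 or 7, without control virus day 4, 6 or 7, and without all arrays of any of days 4 to 7. On days 0 and 1 the probe read 7.43 and 7.42 with SOX2 shRNA, against 7.19 and 6.99 with control virus. After subtraction of that early difference the late one was 0.11 (adjusted p = 0.953), and the difference in slope was 0.0072 per day (adjusted p = 0.995). SOX2 itself differed from control virus by -1.79 and -2.15 on days 0 and 1 in this arm. Both values thus leave out any difference already present once SOX2 was low. With NANOG shRNA the probe read 7.17, 7.02 and 7.00, also above all control virus arrays, and the difference of 0.32 ± 0.14 was not called (adjusted p = 0.13).

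The other HMGA2 probe, ILMN_1666236, was not called with OCT4 shRNA. It was above background on 4 of 8 OCT4 shRNA arrays, 2 of 7 with NANOG shRNA, 4 of 8 with SOX2 shRNA, 3 of 8 in H9 cells and 2 of 8 with control virus. Its late difference was 0.09 ± 0.13 with OCT4 shRNA (adjusted p = 0.614), 0.14 ± 0.14 with NANOG shRNA (adjusted p = 0.586) and 0.36 ± 0.13 with SOX2 shRNA (adjusted p = 0.0988). The rise of HMGA2 with OCT4 shRNA thus rests on 1 of its 2 probes. The platform annotation assigns these probes to different HMGA2 transcripts, so they need not read the same message.

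**Figure D2:**
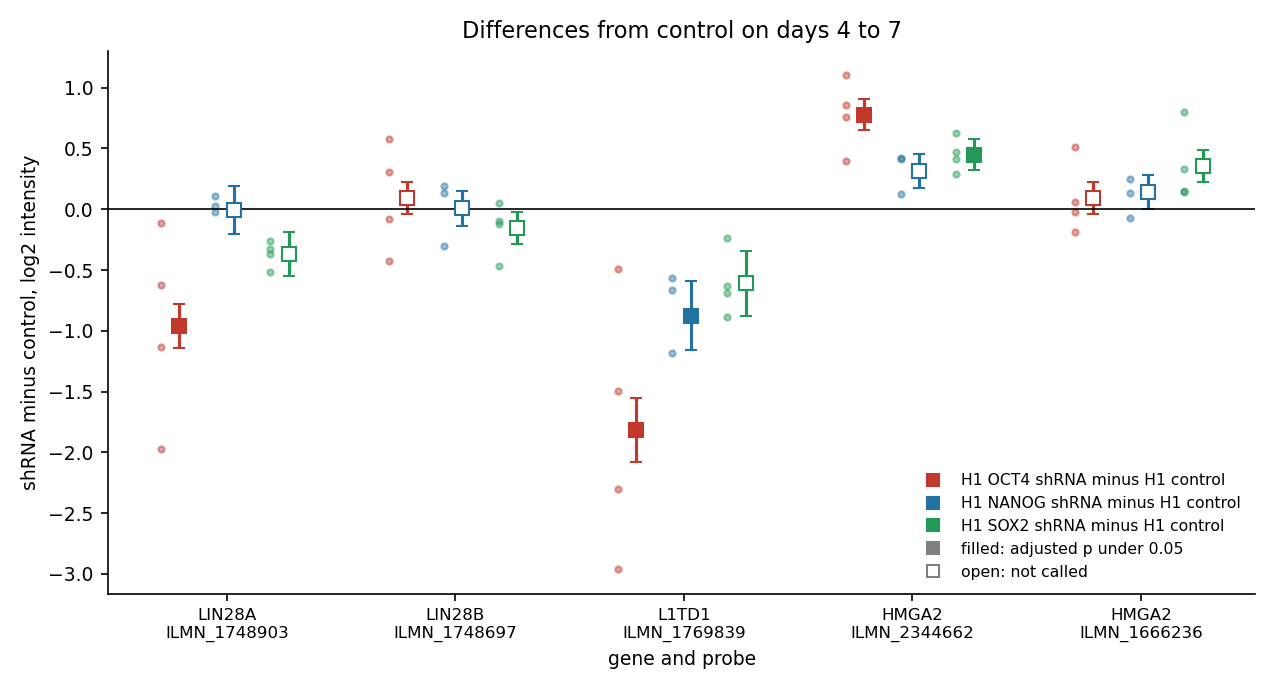
Log2 difference between each H1 shRNA arm and control virus on days 4 to 7, by gene and probe. Squares with bars are the fitted difference and its SE, filled where the adjusted p was under 0.05, and small points are the same-day differences. L1TD1 with OCT4 shRNA lies lowest at -1.81, and the probes of HMGA2 differ, at 0.78 and 0.09 with OCT4 shRNA.

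No difference of the 4 genes passed the test on the first days. On days 0 and 1 no gene of the 4 was called in any arm (0 of 4 by limma, and 0 at an unadjusted p under 0.05), where 0.0148% of all genes were called with OCT4 shRNA, 0.00738% with NANOG shRNA and 0% with SOX2 shRNA. The largest early difference of the 4 genes was 0.16 in size with OCT4 shRNA, 0.22 with NANOG shRNA and 0.34 with SOX2 shRNA. On days 2 and 3, 1 of 4 was called with OCT4 shRNA (5.2% of all genes), 0 of 4 with NANOG shRNA (3.93%) and 0 of 4 with SOX2 shRNA (0.406%), and 1 of 4 had an unadjusted p under 0.05 in each arm. The call was HMGA2, which read 7.27 and 7.41 with OCT4 shRNA on days 2 and 3, against 6.81 and 6.62 with control virus, a difference of 0.63 ± 0.18 (adjusted p = 0.0382). This call was lost without the arrays of day 2 (0.79, adjusted p = 0.0921), day 3 (0.46, adjusted p = 0.903) or day 5 (adjusted p = 0.0628), and where only those 2 arms entered the fit (adjusted p = 0.128). With SOX2 shRNA HMGA2 read 7.37 and 7.30 on the same days, a difference of nearly the same size (0.62 ± 0.18) that was not called (adjusted p = 0.17), but was called where only those 2 arms entered the fit (adjusted p = 0.0227) and with array weights (adjusted p = 0.0104). L1TD1 read 11.34 and 11.85 with OCT4 shRNA on these days, against 11.82 and 12.06, a difference of -0.34 that was not called (adjusted p = 0.718).

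The shRNA arms were also tested against each other. Between OCT4 and NANOG shRNA on the late days, 3 of 4 genes were called (42.9% of all genes): LIN28A was lower with OCT4 shRNA (log2 difference -0.95 ± 0.20, adjusted p = 1.9e-04), as was L1TD1 (-0.94 ± 0.29, adjusted p = 0.0081), and HMGA2 was higher (0.46 ± 0.14, adjusted p = 0.0075). The OCT4 shRNA mean covers days 4 to 7 and the NANOG shRNA mean only days 4 to 6, while LIN28A and L1TD1 fell from day to day with OCT4 shRNA. Without OCT4 shRNA day 7 the LIN28A difference was -0.66, and it was called in all 15 settings that left out an array or a day. The L1TD1 call was lost without OCT4 shRNA day 7 (-0.63, adjusted p = 0.0586) and without NANOG shRNA day 4, and the HMGA2 call without all day 7 arrays (0.35, adjusted p = 0.0542) and with the mean of both probes (0.20, adjusted p = 0.134). Between OCT4 and SOX2 shRNA, 3 of 4 were called (46.9% of all genes): L1TD1 with -1.20 ± 0.26 (adjusted p = 3.3e-04), LIN28A with -0.59 ± 0.18 (adjusted p = 0.0075) and HMGA2 with 0.33 ± 0.13 (adjusted p = 0.0349). The LIN28A difference was -0.30 without OCT4 shRNA day 7 and was then not called (adjusted p = 0.0876), nor was it without all arrays of day 6 (-0.50, adjusted p = 0.075). Where only those 2 arms entered the fit, neither LIN28A (adjusted p = 0.055) nor HMGA2 (adjusted p = 0.0778) was called. The HMGA2 difference was 0.03 with the mean of both probes (adjusted p = 0.82). It was called in 8 of 16 settings that left out an array or a day, and was lost without OCT4 shRNA day 4 or day 7 (0.22, adjusted p = 0.178), without SOX2 shRNA day 5, 6 (0.26, adjusted p = 0.124) or 7, and without all arrays of day 4, 6 or 7. Between NANOG and SOX2 shRNA, 0 of 4 were called by limma (18% of all genes) and 0 had an unadjusted p under 0.05. LIN28A differed there by 0.36 ± 0.20 (adjusted p = 0.23), which was called where only those arms entered the fit (adjusted p = 0.00529). By late mean, which covers only days 4 to 6 for NANOG shRNA, L1TD1 thus ran in the order OCT4 shRNA (10.29), NANOG shRNA (11.22), SOX2 shRNA (11.49) and control virus (12.10), in which NANOG and SOX2 shRNA did not differ beyond their spread (-0.27, adjusted p = 0.60). LIN28A ran in the order OCT4 shRNA (12.68), SOX2 shRNA (13.27), NANOG shRNA (13.63) and control virus (13.64), and only the first of these neighbouring pairs differed by the test.

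Change over the week was then compared within each arm, days 4 to 7 against days 0 and 1. In the H1 shRNA arms the target was lower than with control virus by day 1, so this change leaves out differences already there. With control virus 0 of 4 genes were called by limma (0.532% of all genes), and 1 had an unadjusted p under 0.05: HMGA2, with -0.34 ± 0.16 (adjusted p = 0.359). In H1 cells with OCT4 shRNA 3 of 4 were called (41.7% of all genes): L1TD1 fell by 1.97 ± 0.32 on the log2 scale, LIN28A fell by 0.81 ± 0.22 (adjusted p = 0.0039) and HMGA2 rose by 0.56 ± 0.16 (adjusted p = 0.0044). HMGA2 stood at 7.31 on day 0 and 6.62 on day 1 in that arm, and without the day 1 arrays its rise was 0.22 and not called (adjusted p = 0.413), while without the day 0 arrays it was 0.91. LIN28A changed by -0.52 without the day 7 arrays and lost its call without the day 0 arrays (adjusted p = 0.0553). Where only that arm entered the fit, neither LIN28A (adjusted p = 0.139) nor HMGA2 (adjusted p = 0.0762) was called. With NANOG shRNA 1 of 4 was called (10.8% of all genes), L1TD1 with -1.15 ± 0.34 (adjusted p = 0.0254), a call lost without NANOG shRNA day 5 (adjusted p = 0.0565) or day 6 (-0.97, adjusted p = 0.13) and without all arrays of day 0 or 1. With SOX2 shRNA it was 0 of 4 by limma (6.91% of all genes, and 0 at an unadjusted p under 0.05).

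In H9 cells with OCT4 shRNA, L1TD1 fell and LIN28B rose over the week, while LIN28A and HMGA2 did not pass the test. POU5F1 fell by 2.37 on the log2 scale in this arm, and fell by 4.86 in H1 cells with OCT4 shRNA. L1TD1 read 11.65, 11.16, 10.86 and 11.35 on days 4 to 7, against 13.29 and 13.35 on days 0 and 1, a change of -2.07 ± 0.32 (adjusted p = 1.6e-05) and the 15th lowest of all genes. LIN28B read 11.75, 11.75, 11.99 and 12.19 on days 4 to 7, against 11.17 and 11.18 on days 0 and 1, a change of 0.74 ± 0.16 or 1.67-fold (adjusted p = 7.3e-04). Late and early arrays did not overlap for either gene, and 2 of 4 genes were called where 26.8% of all genes were. Both calls held in all 12 settings that left out an array or a day. Without a control virus arm in H9 cells, shRNA and time in culture cannot be told apart there.

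LIN28A read 13.72, 13.87, 13.62 and 13.55 in H9 cells on days 4 to 7, against 13.57 and 13.75 on days 0 and 1, a change of 0.03 ± 0.22 (adjusted p = 0.936). HMGA2 read 7.12, 6.95, 6.82 and 6.82 on days 4 to 7, against 6.83 and 7.00, a change of 0.01 ± 0.16 (adjusted p = 0.963). Tested between the lines, 1 of 4 changes was called (28.2% of all genes): the change of LIN28A was higher in H9 than in H1 cells by 0.84 ± 0.32 (95% confidence interval 0.20 to 1.48, adjusted p = 0.0439). That call held in 5 of 16 settings that left out an array or a day, and the difference was 0.55 without H1 OCT4 shRNA day 7 (adjusted p = 0.0826). HMGA2 differed by -0.55 ± 0.22 (95% confidence interval -1.005 to -0.095, adjusted p = 0.0637, and 0.0363 with the day as a block). It was -0.99 and called without the day 0 arrays (adjusted p = 0.0131), and -0.11 without the day 1 arrays (adjusted p = 0.821). LIN28B differed by 0.45 ± 0.23 (95% confidence interval -0.008 to 0.91, adjusted p = 0.136) and L1TD1 by -0.10 ± 0.46 (95% confidence interval -1.03 to 0.84, adjusted p = 0.901).

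**Figure D3:**
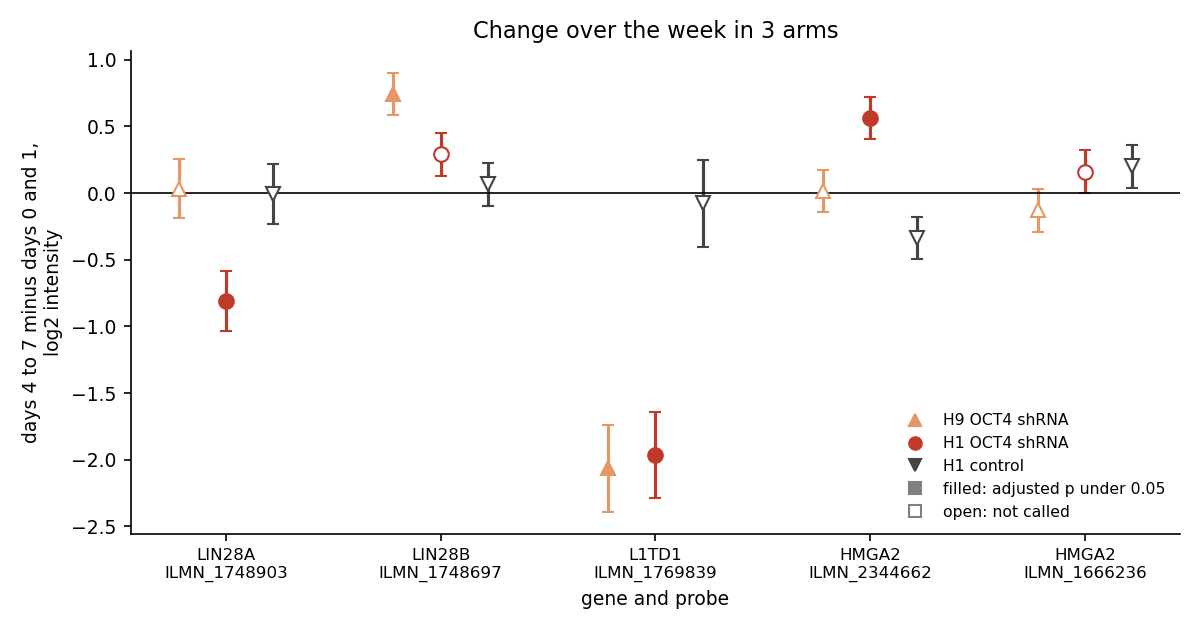
Change from days 0 and 1 to days 4 to 7 (log2 intensity, with its SE) in H9 cells with OCT4 shRNA, H1 cells with OCT4 shRNA and H1 cells with control virus, filled where the adjusted p was under 0.05. L1TD1 fell in both OCT4 shRNA arms, by 2.07 in H9 and 1.97 in H1 cells. LIN28A lies at 0.03 in H9 cells and -0.81 in H1 cells with OCT4 shRNA.

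Markers of other cell types moved with the OCT4 shRNA result in H1 cells. The counts that follow are to be read against the 47.8% of all genes called with OCT4 shRNA. Of 8 trophoblast markers tested, 7 were higher with OCT4 shRNA than with control virus, HAND1 at least 163-fold, and their summed intensity on days 4 to 7 was 17847 to 24466, against 1312 to 1447 with control virus, where 5 of the 8 were above background on no array. Of 9 markers of undifferentiated cells, 7 were lower and 1 higher, with a sum of 5503 to 11188, against 29793 to 34024 with control virus. These 9 include the targeted genes POU5F1, NANOG and SOX2, here and in the counts of the same markers below. POU5F1 alone had a mean late intensity of 162 with OCT4 shRNA, against 6725 with control virus, so the count and sum partly restate the knockdown. Of 10 fibroblast or stroma markers, 6 were higher and 1 lower, with a sum of 7710 to 32526, against 7379 to 9887 with control virus. Of 5 mesoderm markers, 2 were higher and 1 lower (median difference 0.17), and 2 were above background on no late OCT4 shRNA array. Their sum was 3861 to 5606, against 714 to 768 with control virus. In H9 cells with OCT4 shRNA the trophoblast sum was 1160 to 1236 on the late days, and 6 of the 8 markers were above background on no array. Over the week in H9 cells, where 26.8% of all genes were called, 6 of 9 markers of undifferentiated cells fell and 1 rose (median change -0.83), and 4 of 8 neuroectoderm markers rose (median change 0.87, late sum 4574 to 7635). With NANOG shRNA (15.3% of all genes called) 6 of 8 neuroectoderm markers were higher, with a sum of 4683 to 5806, against 2791 to 3621 with control virus. In that arm 7 of 9 markers of undifferentiated cells were lower (median difference -0.83), with a sum of 17305 to 22962. With SOX2 shRNA (8.21% of all genes called) 2 of these 9 were lower, with a sum of 23751 to 26543. The part of these markers in the values of the 4 genes was not tested, and in RNA of whole cultures fewer cells of a type and less RNA per cell cannot be told apart.

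The genes of let-7 processing and turnover, not all of them enzymes, moved both ways with OCT4 shRNA. Of 20 tested, 6 were higher and 6 lower with OCT4 shRNA on the late days (60% called, against 47.8% of all genes), with a median difference of -0.002, the same as over all genes. TRIM71, a let-7 target itself and an RNA-binding ubiquitin ligase, read 9.58 with OCT4 shRNA and 10.95 with control virus (-1.36 ± 0.26, adjusted p = 4.3e-05). HNRNPA1, which binds let-7 precursors, was lower (-0.92 ± 0.15, adjusted p = 5.4e-06), and DGCR8, the partner of DROSHA in primary microRNA cleavage, was higher (0.91 ± 0.14, adjusted p = 1.9e-06). With NANOG shRNA 3 were higher and 1 lower (20% called, against 15.3% of all genes, median 0.12): MSI1, an RNA-binding protein of neural progenitors, read 8.90 against 7.57 with control virus (1.33 ± 0.11, adjusted p = 2.0e-10), and TRIM25, a cofactor of LIN28A-mediated uridylation, was lower (-0.56 ± 0.14, adjusted p = 0.0068). With SOX2 shRNA 2 were called, both higher (10%, against 8.21% of all genes, median 0.02): MSI1 (0.52 ± 0.10, adjusted p = 7.3e-04) and DICER1 (0.35 ± 0.09, adjusted p = 0.0097). The uridylyl transferases TUT4 and TUT7 and the nuclease DIS3L2, which act with LIN28A, were called in none of the 3 late differences.

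Other let-7 targets moved both ways with OCT4 shRNA. Of 30 listed, 25 were tested, and with OCT4 shRNA 8 were higher and 9 lower (68% called, against 47.8% of all genes, median -0.09). CDK6, a G1 kinase, was higher (1.94 ± 0.17, adjusted p = 5.9e-11), as was ARID3A, a DNA-binding protein (1.72 ± 0.15, adjusted p = 3.1e-11), while the transcription factor MYCN was lower (-1.94 ± 0.27, adjusted p = 5.1e-07). HRAS, FIGN, PLAGL2, IGF2BP2, PRTG and DICER1 were the others called higher. With NANOG shRNA 6 were higher and 1 lower (28% called, against 15.3% of all genes, median 0.17). The one lower was MYC (-1.62 ± 0.28, adjusted p = 9.0e-05), and E2F2 (1.25 ± 0.15, adjusted p = 3.0e-07) and the cyclin gene CCND1 (0.86 ± 0.14, adjusted p = 3.2e-05) were higher. With SOX2 shRNA 4 were higher and 1 lower (20% called, against 8.21% of all genes, median 0.11): CCND2 (0.93 ± 0.13, adjusted p = 1.5e-05) and CCND1 (0.84 ± 0.13, adjusted p = 3.0e-05) were higher and CDK6 was lower (-0.70 ± 0.17, adjusted p = 0.0079).

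Of 28 other RNA-binding proteins listed, 25 were tested. With OCT4 shRNA 5 were higher and 11 lower (64% called, against 47.8% of all genes, median -0.12): DAZL, a germ cell RNA-binding protein, was at least 2.64-fold lower (adjusted p = 5.2e-07), RBPMS2 was lower (-1.34 ± 0.15, adjusted p = 4.6e-09), as was TRIM71, and MBNL2, a splicing regulator, was at least 1.68-fold higher (adjusted p = 7.1e-09). MSI1, IGF2BP2, NANOS3 and MBNL1 were the others called higher. With NANOG shRNA 4 were higher and 3 lower (28% called, against 15.3% of all genes, median -0.01), among them RBM24 with 0.89 ± 0.15 (adjusted p = 6.4e-05) and DPPA5, which was at least 1.25-fold lower (adjusted p = 2.6e-04). ESRP1 (-0.65 ± 0.19) and RBPMS2 (-0.54 ± 0.16) were the others called lower. With SOX2 shRNA MSI1 was higher and DPPA5 at least 1.25-fold lower (adjusted p = 5.9e-04), the only 2 of 25 called there (8%, against 8.21% of all genes, median -0.03). A fold written as "at least" sets a group whose arrays were all below background at the lowest level that could be measured.

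**Figure D4:**
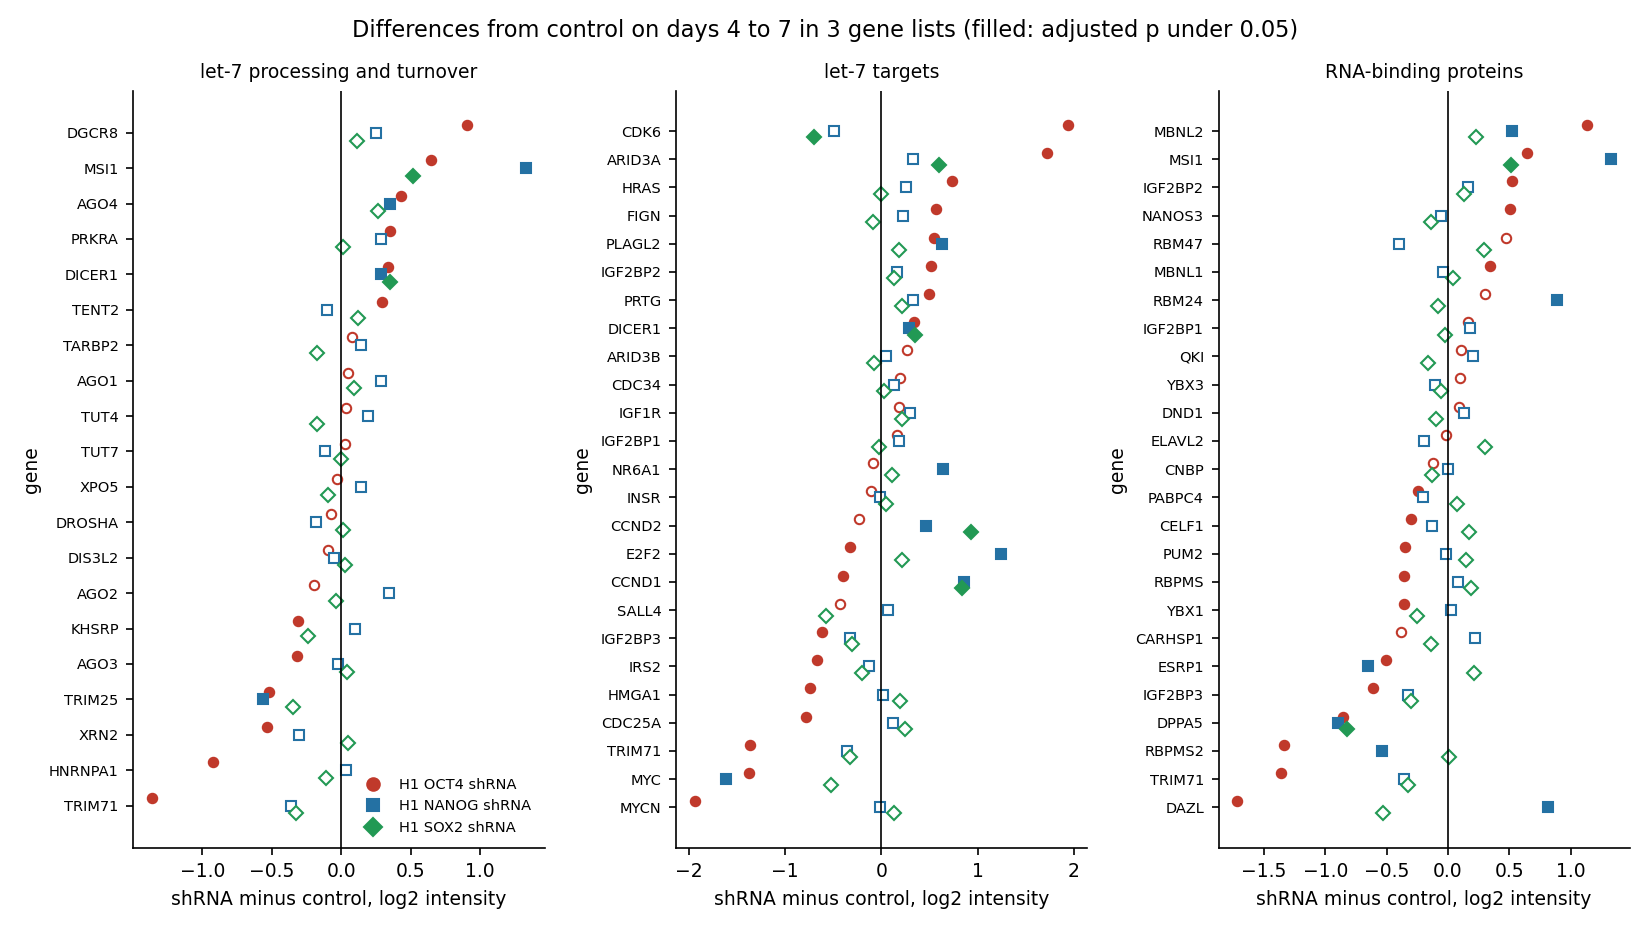
Log2 difference from control virus on days 4 to 7 for 20 genes of let-7 processing and turnover, 25 let-7 targets and 25 RNA-binding proteins, with 1 symbol per H1 shRNA arm, filled where the adjusted p was under 0.05. Within each list the OCT4 shRNA symbols lie on both sides of 0, TRIM71 at -1.36 and DGCR8 at 0.91 in the first. For genes below background the points are fitted values and not bounds.

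The array probes named for let-7 genes gave little signal. Of 12 let-7 genes and host transcripts listed, 4 passed the filter and were tested. MIRLET7D was above background on 35 arrays, with intensities of 135 to 218, and MIRLET7I on 12 arrays. Neither was called in a late difference from control virus, at -0.20 and 0.12 on the log2 scale with OCT4 shRNA. MIR100HG, a host transcript that holds a let-7 gene, was higher with OCT4 shRNA (0.66 ± 0.12, adjusted p = 2.4e-05), and MIRLET7D was lower over the week in H9 cells (-0.37 ± 0.14, adjusted p = 0.0389). These probes do not measure mature let-7.

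Across the 31 H1 arrays, the levels of L1TD1 and LIN28A correlated at r = 0.799, and across the 8 H9 arrays at 0.017. LIN28A and LIN28B correlated at 0.304 in H1 and -0.451 in H9 cells, and L1TD1 and LIN28B at 0.0798 in H1 and -0.859 in H9 cells. These arrays share time courses, so the values are descriptions. By Pearson's r, the genes most like LIN28A over the H1 arrays were FAM117B (r = 0.887), NT5DC1 (0.877), ASS1 (0.875), ECEL1 (0.871) and TSPAN33 (0.871), but by Spearman's rho they ranked between 35.5 and 397.5 of 13543 genes. Those most like L1TD1 were AUNIP (0.91), PACSIN1 (0.898), CD24 (0.897), RARRES2 (0.894) and PARP1 (0.89), of which RARRES2 and the surface glycoprotein gene CD24 stayed close in H9 cells (0.887 and 0.836) and AUNIP did not (-0.158). By Spearman's rho these ranked between 1 and 473.5. Those most like LIN28B had lower values, HNRNPF at 0.743, NMNAT2 at 0.702, FAM184A at 0.701, TMEM135 at 0.7 and KCNJ13 at 0.697, as had those most like HMGA2, MGAT3 at 0.747, RTCA at 0.741, WASH7P at 0.712, GADD45A at 0.711 and RTL8B at 0.707. By Spearman's rho those of LIN28B ranked between 12 and 128, and those of HMGA2 between 1 and 14. Across the H9 arrays, Pearson's r for those of LIN28B ran from -0.849 (KCNJ13) to 0.428 (HNRNPF). It ran from -0.508 (GADD45A) to 0.338 (WASH7P) for those of HMGA2, and from 0.0594 (ASS1) to 0.526 (NT5DC1) for those of LIN28A.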

How the data were processed

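The authors deposited a processed table of linear probe intensities, which was the start of all that follows. Per the labels' protocols, RNA was extracted with Trizol, treated with DNase, and made into biotinylated cRNA with the Illumina TotalPrep kit. The software is not given in the sources used here. As the values show, the authors quantile normalized the intensity columns (at least 98.4% of sorted values shared with the first column) without subtracting background (lowest value 91.0), so depth cannot be compared by total and the number of arrays limits the precision.

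A further table holds 80 value columns whose names match no label. They were not used, only its probe order. In that order the H9 values stood 2 rows too early after row 13058 (correlation of mean H9 and H1 levels 0.987 before the break, 0.224 after it as deposited and 0.99 after the move), so 30 probes next to it were dropped. Intensities were corrected by normexp (offset 50) and taken to log2. A probe passed above an intensity of 145 on at least 4 arrays. That level estimates the 99th percentile of 457 olfactory receptor probes from their median and median absolute deviation, taking a normal distribution. The platform annotation gave the gene names (30113 probes with 1 symbol, 8 with several and 17202 with none). Of 24940 probes passing, the one with the highest mean stood for its gene, which gave 13544 genes.

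Tests used limma 3.58.1 in R 4.3.3 on means of arm by window of days (0 and 1, 2 and 3, 4 to 7), all 39 arrays sharing 1 spread, with Benjamini-Hochberg adjustment over all genes. Median differences over all genes lay between -0.0036 and 0.0051 on the late days. Since an array's number gives its day, per the labels, same-day arrays pair across arms, and 33 of 56 same-day correlations of deviations (58.9%) were above 0.1 (median 0.127). The genes and lists were chosen with earlier results of these data known. Named were all probes of the 4 genes, the targeted genes, per list and late difference the 3 called members of largest size and any against the majority, and the 5 genes of most similar level, other names being chosen after values were seen. Alternatives were the offset, the filter, the probe rule, the arms fitted, array weights, the day as a block, other windows, slopes, leaving out arrays, and H9 as deposited.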

Additional observations from a re-analysis of the deposited data

Results flagged for a closer look

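HMGA2 (ILMN_2344662) in H1 cells with OCT4 shRNA read 6.62 on day 1, the lowest of the 8 arrays of that arm, and the next lowest was 7.27. The gap was 0.529 of the range, against a critical value of 0.526 for 8 samples. It was 1 such array among 45 groups of values examined, and chance gives about 1 in 20 groups. The early mean of that arm rests on this array and on day 0.

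LIN28A changed differently over the week in the 2 lines with OCT4 shRNA: the change in H9 cells minus the change in H1 cells was 0.84 by limma's interaction test (SE 0.32, adjusted p = 0.0439). It was called in 14 of 28 alternatives. The H9 values rest on the move by 2 rows.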

How the results depend on the processing

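Over 72 results on the 4 genes and 1800 alternatives, 1696 stayed as they were, whether called or not called, 76 lost a call, 25 gained one and 3 reversed. Of the first kind, 63 were not called in either setting and had the other sign. With only the arms compared in the fit, HMGA2 with NANOG shRNA (0.32, adjusted p = 0.0411), LIN28A (-0.37) and L1TD1 (-0.61) with SOX2 shRNA were called, and all genes called numbered 1886 with SOX2 shRNA (1112 in the report's fit) and 2384 in H9 cells (3633). The same setting removed calls of the H1 OCT4 shRNA arm. Those were LIN28A and HMGA2 over the week and against SOX2 shRNA, L1TD1 against NANOG shRNA, and HMGA2 on days 2 and 3. The H9 minus H1 change of LIN28A was not called there either. With array weights LIN28A (-0.36) and L1TD1 (-0.57) with SOX2 shRNA were called, and genes called numbered 4750 with NANOG shRNA (2070) and 2284 with SOX2 shRNA. On days 5 to 7 HMGA2 with SOX2 shRNA (0.39, adjusted p = 0.129) lost its call. After subtraction of the difference on days 0 and 1, LIN28A with OCT4 shRNA (-0.80, adjusted p = 0.0627), L1TD1 with NANOG shRNA (-1.07, adjusted p = 0.348) and HMGA2 with SOX2 shRNA (0.11, adjusted p = 0.953) lost theirs, and genes called were 3205 with OCT4 (6475), 150 with NANOG and 4 with SOX2 shRNA. With slopes per day, HMGA2 with SOX2 shRNA was not called (0.0072), and genes called were 3486, 365 and 3 with OCT4, NANOG and SOX2 shRNA. With H9 values as deposited, LIN28B (-0.12) and L1TD1 (0.028) changed sign and were not called in H9 cells, and the H9 minus H1 change of L1TD1 became 1.99; the probes are then other genes' values by construction. The cause of the other changes was not tested.

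Leaving out 1 day or array gave LIN28A differences of -1.26 to -0.62 with OCT4, -0.05 to 0.04 with NANOG and -0.40 to -0.32 with SOX2 shRNA. LIN28B ranged from -0.07 to 0.27, -0.08 to 0.13 and -0.23 to -0.05, L1TD1 from -2.25 to -1.43, -1.03 to -0.69 and -0.73 to -0.52, and HMGA2 from 0.67 to 0.91, 0.26 to 0.39 and 0.39 to 0.51, in the same order. In H9 cells the changes were -2.20 to -1.93 (L1TD1), 0.65 to 0.80 (LIN28B), -0.06 to 0.12 (LIN28A) and -0.07 to 0.10 (HMGA2). Genes called ranged from 5321 to 6622 with OCT4, 907 to 1988 with NANOG, 492 to 1078 with SOX2 shRNA and 1969 to 3920 in H9 cells. With the day as a replicate block the late calls were LIN28A -0.96, L1TD1 -1.81 and HMGA2 0.78 with OCT4 shRNA, L1TD1 -0.93 with NANOG shRNA and HMGA2 0.45 with SOX2 shRNA, and apart from the H9 minus H1 change of HMGA2 no call on the 4 genes changed.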

Other observations

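In H9 cells with OCT4 shRNA, 7 of 25 let-7 targets were called by limma over the week, each lower (median change -0.20), where 26.8% of all genes were called. MYC fell by 1.24 ± 0.31 on the log2 scale (adjusted p = 0.0035), HRAS fell by 0.61 ± 0.19 (adjusted p = 0.0134) and CCND2 fell by 0.58 ± 0.16 (adjusted p = 0.0081). Of 25 other RNA-binding proteins 2 rose and 8 fell (median -0.03). RBM47 fell by 2.12 ± 0.27 (adjusted p = 9.0e-07), RBPMS2 fell by 1.38 ± 0.18 (adjusted p = 1.1e-06) and YBX3, a cold shock domain protein, fell by 0.93 ± 0.14 (adjusted p = 6.5e-06), while RBM24 rose by 0.76 ± 0.17 (adjusted p = 9.1e-04) and MSI1 rose by 0.46 ± 0.12 (adjusted p = 0.0051). Of 20 genes of let-7 processing and turnover 1 rose and 2 fell, and AGO1, an Argonaute protein that carries mature microRNAs, fell by 0.97 ± 0.16 (adjusted p = 3.5e-05). These changes have no control virus arm in H9 cells to be set against.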
